A study of Mus musculus with 18 samples.

Results

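Neuronal intermediate filaments are the rope-like polymers that fill large axons, and 5 genes encode the subunits described here: Nefl, Nefm and Nefh (the light, medium and heavy neurofilament chains), Ina (alpha-internexin) and Prph (peripherin). They were chosen by name as the neuronal members of the intermediate filament family, and they are 5 of the 12394 genes on the array and 10 of its 22690 probe sets. RNA came from motor neurons of the lumbar spinal cord, 1000 per animal, cut out by laser from sections stained with toluidine blue, and each of the 18 arrays held the amplified RNA of 1 mouse. The mice carried a SOD1 transgene with the G93A mutation, a model of inherited amyotrophic lateral sclerosis (ALS), and were 60, 90 or 120 days old, or were non-transgenic controls of the same 3 ages, with 3 mice in each of the 6 groups. The labels name neither the transgene's promoter nor the strain or sex of the mice, and no agent is named for any group.

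The light chain forms the core of the neurofilament and is needed for its assembly, while the medium and heavy chains carry long tails that project from the core, are heavily phosphorylated and space the filaments apart. Alpha-internexin co-assembles with the 3 chains in central neurons, and peripherin does so in neurons that send axons out of the central nervous system, among them spinal motor neurons. Neurofilament content sets the calibre of large axons, and clumps of neurofilaments and peripherin in motor neurons and their axons are a known feature of ALS and of SOD1 mutant mice.

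Promoter sequence was on hand for Prph and Ina, 2 of the 5 genes, and is shown for both. The 100 bases just upstream of the transcription start, taken from RefSeq on the build GRCm38.p6, are printed on the plus strand, which is the coding strand of both genes. Capitals mark matches to the TATA box letters TATAAA and to the GC box letters GGGCGG, both searched on either strand.
Prph, chr15:99055074-99055173: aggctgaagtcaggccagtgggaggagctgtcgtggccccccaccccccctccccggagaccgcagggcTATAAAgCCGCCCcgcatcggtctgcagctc
Ina, chr19:47014581-47014680: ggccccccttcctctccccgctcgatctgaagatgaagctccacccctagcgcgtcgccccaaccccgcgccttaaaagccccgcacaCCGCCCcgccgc
In the 250 bases upstream of the start, Prph held 1 TATAAA match beginning 31 bases before the start and 1 GC box match beginning 24 bases before it. Ina held no TATAAA match and 2 GC box matches, beginning 111 and 12 bases before the start, and the first of these lies outside the printed stretch. TATAAA was found in 12.4% and GGGCGG in 32.7% of 32851 mouse promoters of the same length.

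The deposited values are signals made with MAS5, a method that condenses the probes of a set into 1 signal per array on a linear scale. Differences are given on the log2 scale with their standard errors from limma, a linear model over all 18 arrays, and a difference counted as a change at an adjusted p below 0.05 over the 16565 probe sets tested. All 10 probe sets of the 5 genes passed the filter on low signal and were tested. A gene with several probe sets is described first by its brightest one. The 6 groups rest on 3 mice each, which limits the precision: over all tested probe sets the median standard deviation (SD) within a group was 0.85 on the log2 scale, and it was 0.57 for Nefl, 1.07 for Nefm, 0.59 for Nefh, 0.43 for Ina and 0.56 for Prph.

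Markers of other cell types were measured in every group, and several defining motor neuron markers were dim. Of 12 motor neuron markers, Slc18a3 lay above the array median on 0 of 18 arrays, Slc5a7 on 2, Mnx1 on 8 and Isl1 on 9, while Calcb and Uts2 did so on all 18 and Chodl on 16; no marker was at 0. Mbp, a myelin protein gene of oligodendrocytes, lay between 3113.2 and 18709.4 units over the 18 arrays. Array quality also differed between groups: the log2 level of 18 spiked hybridization controls averaged 9.47 in G93A and 11.15 in control mice 60 days old. The averages were 9.09 in G93A and 9.83 in control mice of 90 days, and 11.62 in G93A and 11.64 in control mice of 120 days. The Gapdh ratio, 3′ over 5′ probe set on the log2 scale, a measure of RNA integrity, averaged 4.14 in G93A and 3.36 in control mice of 60 days, without overlap. It averaged 4.39 in G93A and 3.25 in control mice of 90 days, and 4.94 in G93A and 4.48 in control mice of 120 days. In such captured samples fewer neurons of a type and less RNA per neuron cannot be told apart.

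No filament probe set changed between G93A and control mice at any age, yet the neurofilament chains lay mostly lower in G93A mice. Of the 10 probe sets, 0 were called at 60, 90 or 120 days, against 0.688%, 0% and 0.0241% of all tested probe sets. Averaged over the 3 ages 0 of 10 were called, against 0.0121% of all. At 60 days all 10 differences were below 0, with a median of -0.42 against -0.07 over all tested probe sets, although those of Nefh, Ina 1448991_a_at and Prph 1422530_at turned above 0 once arrays were centred on their medians. At 90 days 6 of 10 were below 0, with a median of -0.41 against -0.02. At 120 days 4 of 10 were below 0, with a median of 0.22 against 0.09, and the brightest probe sets of the 5 genes alone had a median of -0.95. Centring moved every difference at 120 days by -0.32, which turned the median of the 10 and 3 of the positive differences (0.20, 0.25 and 0.27) below 0. An unadjusted p below 0.05 with a lower signal in G93A mice was found for 1 of 10 probe sets at 60 days, 2 at 90 days, 3 at 120 days and 3 on average, against 4.73%, 2.27%, 5.98% and 3.31% of all. The same with a higher signal was found for 1 of 10 at 120 days, against 6.22%. All 3 G93A mice lay below all 3 controls for 3 of 10 probe sets at 60 days, 2 at 90 days and 1 at 120 days, against 10.6%, 5.93% and 6.2% of all, and above them for 1 at 120 days, against 9.87%.

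**Figure D1:**
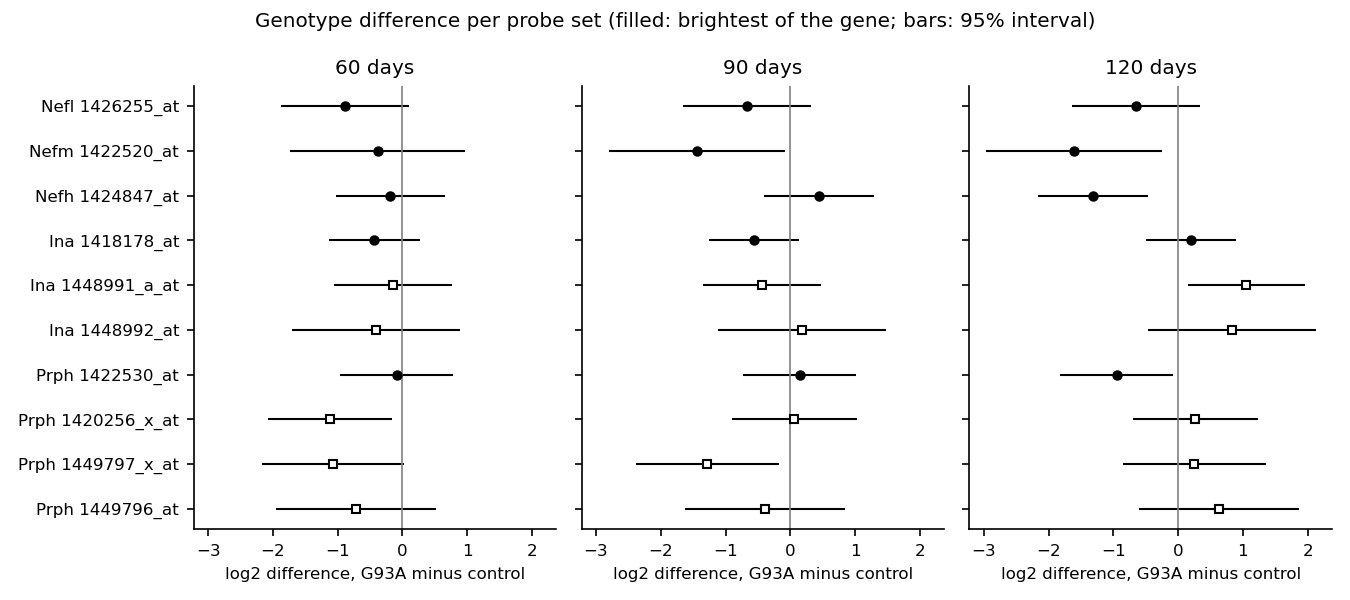
Log2 difference, G93A minus control, of each of the 10 probe sets at 60, 90 and 120 days, with 95% intervals; filled points are the brightest probe set of each gene. At 60 days all 10 points lie left of 0 (3 of them turned with arrays centred on their medians), and at 120 days Nefm, Nefh and the brightest Prph probe set lie left of 0 (-1.61, -1.31 and -0.95) while the 3 Ina probe sets lie right of it (1 of them at -0.12 with centred arrays). The 3 further Prph probe sets also lie right of 0 at 120 days (0.27, 0.25 and 0.63), of which 0.27 and 0.25 turned with centred arrays.

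Nefl, the core chain, had 1 probe set (1426255_at). At 60 days its signal was 6044.4, 16204.4 and 15296.6 units in G93A mice, against 22030.1, 25381.9 and 17125.3 in controls. All 3 G93A mice lay below all 3 controls at that age. At 90 days it was 10526.6, 11327.5 and 11638.8 units in G93A mice, against 24118.7, 9263.9 and 24855.7 in controls, where 1 control lay below every G93A mouse. At 120 days it was 10625.2, 7745.9 and 14872.2 units in G93A mice, against 13679.6, 26845.7 and 12989.5 in controls, and the groups overlapped again.

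The difference for Nefl was -0.89, -0.67 and -0.65 at 60, 90 and 120 days, each with a standard error of 0.48. None passed the test (limma adjusted p = 0.453, 0.997 and 0.612). The mean over the 3 ages was -0.74 ± 0.28 (95% interval -1.31 to -0.17, unadjusted p = 0.0133, adjusted p = 0.548). The age difference of Nefl, 120 minus 60 days, was -0.10 in G93A mice and -0.34 in controls, and the F test of a genotype difference that changes with age did not pass (adjusted p = 0.978). These values depended on the setting: quantile normalization put the difference at 60 days at 0.00 and the mean at -0.27. With the Gapdh ratio as a covariate the difference at 90 days turned to 0.11 and the mean was -0.20, and with the hybridization controls as a covariate the difference at 60 days was -0.05 and the mean -0.33. With 1 array left out, the difference was -0.43 without G93A replicate 1 at 60 days, -1.13 without control replicate 2 and -0.42 without control replicate 3 at 90 days, and -0.32 without control replicate 2 at 120 days.

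**Figure D2:**
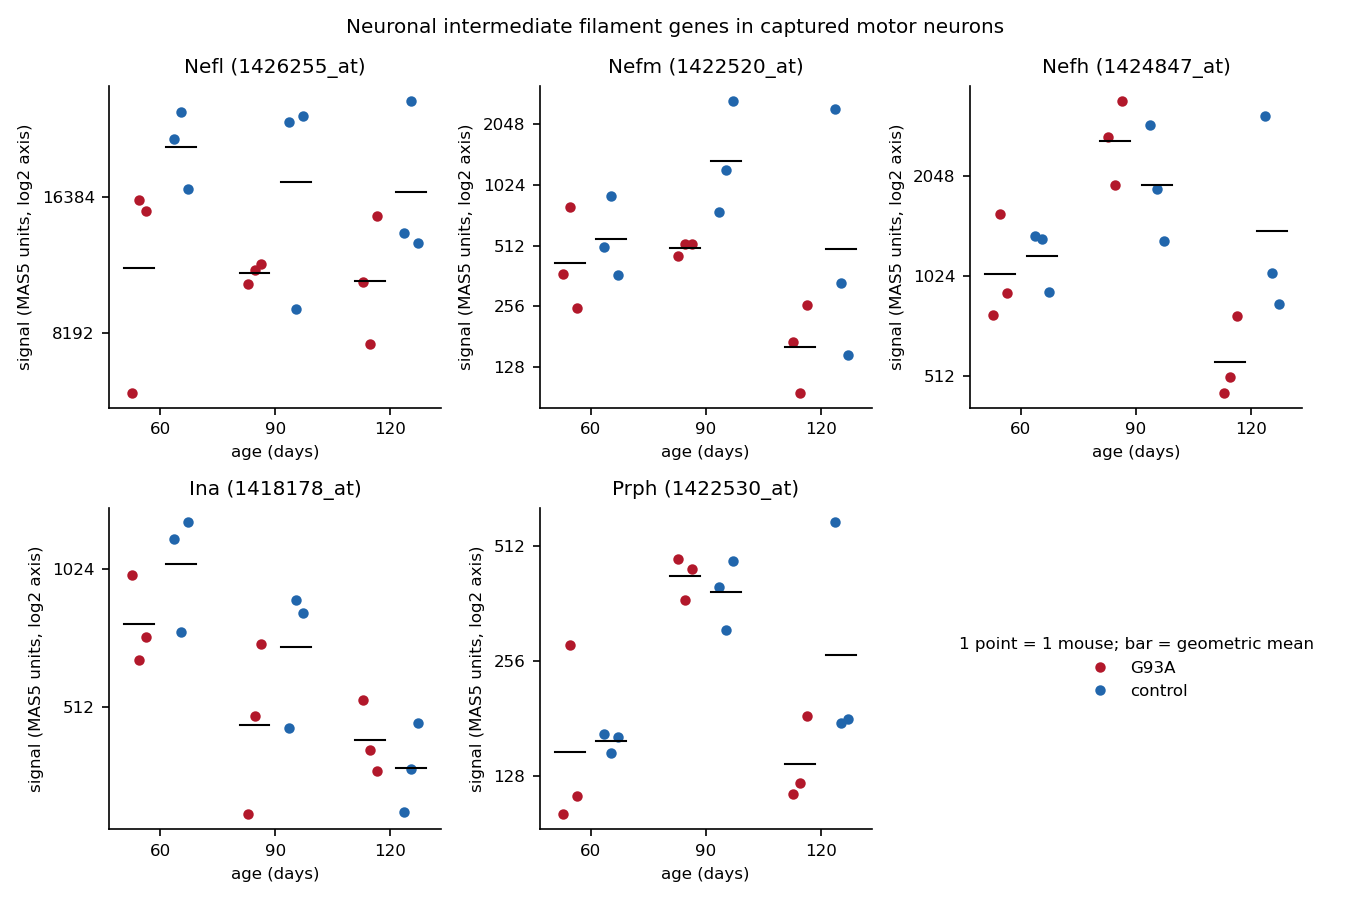
Signal of the brightest probe set of each gene (MAS5 units, log2 axis) by age in days; 1 point is 1 mouse and the bar is the geometric mean of 3 mice. Nefh at 120 days shows all 3 G93A mice (453.6 to 775.1) below all 3 controls (843.0 to 3126.2), and the brightest Prph probe set was highest at 90 days in G93A mice (368.4 to 474.1). Its geometric mean in controls was also highest at 90 days (157.7, 386.7 and 265.6 at 60, 90 and 120 days).

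Nefm, the medium chain, had the widest spread of the 5 genes. At 60 days its signal was 371.7, 796.4 and 251.8 units in G93A mice, against 505.5, 898.5 and 364.1 in controls, with overlap. At 90 days it was 452.3, 520.1 and 521.7 units in G93A mice, against 750.0, 1211.3 and 2681.2 in controls. Here every G93A mouse lay below every control, and the G93A mice were close together while the controls were not. At 120 days it was 170.6, 95.1 and 258.4 units in G93A mice, against 2425.8, 334.7 and 147.5 in controls, where 1 control stood far above the other 5 mice.

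The genotype differences for Nefm were -0.38, -1.44 and -1.61 at 60, 90 and 120 days, each with a standard error of 0.66 (limma adjusted p = 0.857, 0.997 and 0.319). Their mean was -1.14 ± 0.38 (unadjusted p = 0.00599, adjusted p = 0.476), which is the lowest of the 10 probe sets. Without control replicate 1 at 120 days the difference at that age was -0.46 and the mean was -0.76. The interaction of genotype and age did not pass (F test, adjusted p = 0.738).

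Nefh, the heavy chain, is the subunit that marks mature, large-calibre axons. At 60 days its signal was 779.7, 1581.2 and 908.4 units in G93A mice, against 1357.1, 1323.8 and 915.7 in controls. At 90 days it was 2694.7, 1924.4 and 3470.9 units in G93A mice, against 2922.3, 1882.4 and 1308.9 in controls. The genotypes overlapped at both of these ages. At 120 days it was 453.6, 508.3 and 775.1 units in G93A mice, against 3126.2, 1043.9 and 843.0 in controls, so that all 3 G93A mice lay below all 3 controls.

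The genotype differences for Nefh were -0.18, 0.44 and -1.31 at 60, 90 and 120 days, each with a standard error of 0.41. The difference at 120 days had the lowest adjusted p of the 10 probe sets at that age and did not pass (unadjusted p = 0.0038, limma adjusted p = 0.2), and without control replicate 1 it was -0.74. At 60 days the sign turned once arrays were centred on their medians (0.04). The mean over ages was -0.35 ± 0.24.

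The smallest adjusted p of any age difference in the 5 genes was that of Nefh in G93A mice. From the values above, the 3 G93A mice at 120 days lay below the 3 G93A mice at 90 days with no overlap. The step from 90 to 120 days was -2.22 ± 0.41 in G93A mice, a 4.65-fold lower signal (limma adjusted p = 0.00198), and -0.46 ± 0.41 in controls (adjusted p = 0.671). Comparisons with 90 days within a genotype, and of these steps between genotypes, were added after the values had been seen. The difference between these 2 steps, -1.76 ± 0.58, did not pass (95% interval -2.95 to -0.56, unadjusted p = 0.00584, adjusted p = 0.353), nor did the F test over the 3 ages (unadjusted p = 0.0189, adjusted p = 0.273). From 60 to 90 days Nefh was 1.34 ± 0.41 higher in G93A mice with no overlap (unadjusted p = 0.00336, adjusted p = 0.706) and 0.71 ± 0.41 higher in controls (adjusted p = 0.433). Over the whole span, 120 minus 60 days, it was -0.88 in G93A mice (adjusted p = 0.287) and 0.25 in controls (adjusted p = 0.748).

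Of the 10 filament probe sets, 3 changed from 90 to 120 days in G93A mice (2 lower, 1 higher), against 7.65% of all tested probe sets (4.3% lower and 3.34% higher). In controls 0 of 10 changed over the same step, against 1.04% of all, and 4 were lower at an unadjusted p below 0.05, against 7.55%. From 60 to 120 days 0 of 10 changed in G93A mice, against 2% of all, with 3 lower at an unadjusted p below 0.05, against 9.65%. In controls 1 of 10 changed over that span, against 6.71% of all (2.84% lower), and 4 were lower at an unadjusted p below 0.05, against 14.2%. From 60 to 90 days 0 of 10 changed in either genotype, against 0% of all in G93A mice and 1.61% in controls. At an unadjusted p below 0.05, 2 were higher and 1 lower in G93A mice over this step, against 2.66% and 2.83%, and 1 was higher in controls, against 7.96%. The change of the genotype difference from 90 to 120 days was called for 0 of 10 and for 0% of all, and the change over the 3 ages for 0 of 10 and for 0.417%.

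Marker sums of several cell types moved with the step from 90 to 120 days. In G93A mice the summed signal of 12 motor neuron markers was 1007.7 to 1749.4 units at 120 days, against 2179.6 to 4063.3 at 90 days, without overlap. Much of that sum came from Calcb, with a median of 1046 units over the 18 arrays, while Slc18a3, Slc5a7, Isl1 and Mnx1 had medians between 23.0 and 57.8 units. The summed signal of 11 interneuron markers in G93A mice was also lower without overlap, at 1062.3 to 1497.8 units at 120 days, against 1875.7 to 1980.1 at 90 days. The summed signal of 12 microglia markers in G93A mice was 9418.7 to 16392.4 units at 120 days, against 1828 to 3700.4 at 90 days. Most of it came from Csf1r, which reached 13708.2 units, while Aif1 and Itgam lay above the array median on 1 and 2 of 18 arrays. The hybridization controls averaged 11.62 on the log2 scale in G93A mice at 120 days, against 9.09 in G93A mice at 90 days. With the hybridization-control level as a covariate the Nefh step in G93A mice was -2.10 and no longer passed (limma adjusted p = 0.173). The oligodendrocyte sum in G93A mice was 14843 to 21154.6 units at 120 days, against 6308 to 10730.7 at 90 days, and the astrocyte sum was 6384.1 to 9126.1 against 4415.2 to 5847.1, both without overlap. Glial sums were also higher at the later age in controls without overlap: the microglia sum was 3563.5 to 5987.8 units at 120 days, against 1339.8 to 2189.9 at 90 days, the oligodendrocyte sum was 15072.5 to 23306 against 3816 to 8746.9, and the astrocyte sum was 4724.5 to 7389.5 against 2769.1 to 4576.1. The motor neuron sum in controls overlapped, with 1630.4 to 3537.3 units at 120 days, against 2720.6 to 4553.5 at 90 days. So did the interneuron sum in controls, with 1584.8 to 2552.1 against 939.1 to 1708 units. The endothelial sum was higher at 120 than at 90 days without overlap in both genotypes. It was 902 to 956.2 against 593.4 to 779 units in G93A mice and 805.6 to 1021.8 against 359 to 759.9 in controls. The part of the cell makeup in the filament values was not tested.

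**Figure D3:**
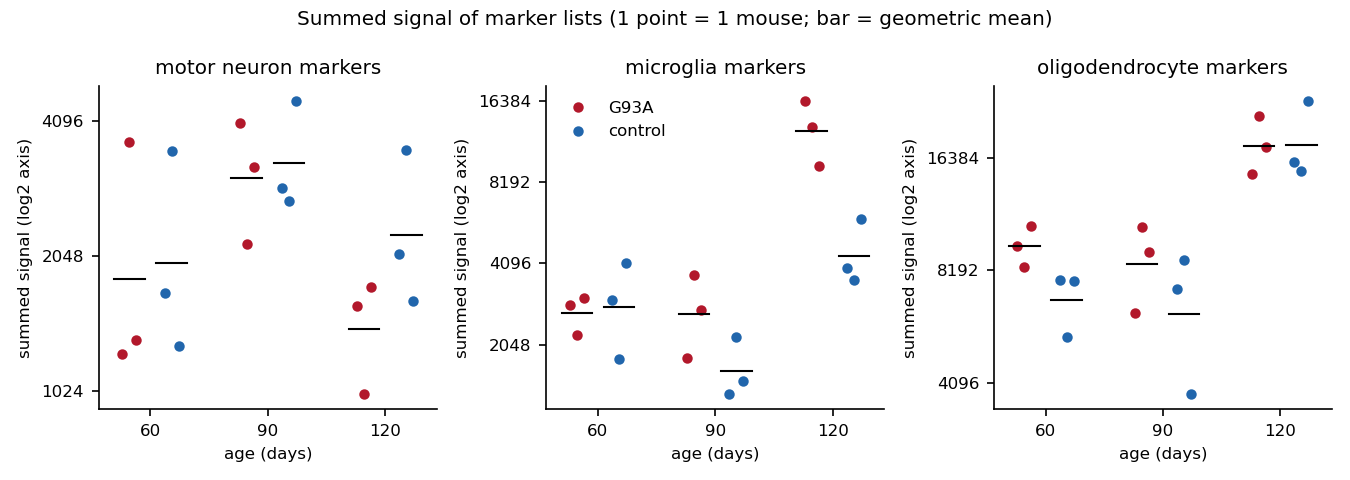
Summed signal of the motor neuron, microglia and oligodendrocyte marker lists (log2 axis) by age in days; 1 point is 1 mouse and the bar is the geometric mean. At 120 days the microglia sum was 9418.7 to 16392.4 in G93A mice, above the 3563.5 to 5987.8 of controls, and the oligodendrocyte sum was 14843 to 21154.6 in G93A mice and 15072.5 to 23306 in controls.

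Nefm followed Nefh in sign between 90 and 120 days without passing. The step was -1.62 ± 0.66 in G93A mice, whose values did not overlap (limma adjusted p = 0.141), and -1.45 ± 0.66 in controls (adjusted p = 0.329). Both steps came past the threshold with 1 array left out: without control replicate 1 at 120 days the step was -1.62 in G93A mice (adjusted p = 0.0308) and -2.60 in controls (adjusted p = 0.0132). The 2 steps differed by -0.18 ± 0.93, with a 95% interval of -2.10 to 1.74.

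Ina, alpha-internexin, is made early in neuronal development, before the neurofilament chains reach their adult level, and it had 3 probe sets. On the brightest (1418178_at) the signal at 60 days was 994.9, 646.5 and 728.4 units in G93A mice, against 1191.2, 746.0 and 1296.6 in controls. At 90 days it was 297.3, 487.1 and 702.5 units in G93A mice, against 460.0, 873.9 and 818.4 in controls. At 120 days it was 528.5, 411.5 and 369.7 units in G93A mice, against 301.0, 374.3 and 470.6 in controls. The genotypes overlapped at every age, and the differences were -0.43, -0.56 and 0.20, each with a standard error of 0.34 (limma adjusted p = 0.643, 0.997 and 0.853).

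This Ina probe set, 1 of 3 for the gene, was lower at 120 than at 60 days, and in controls the step passed the test. It was -1.48 ± 0.34 in controls, a 2.79-fold lower signal with no overlap between the ages (limma adjusted p = 0.0105), and -0.85 ± 0.34 in G93A mice, again with no overlap (adjusted p = 0.198). The F test of a genotype difference that changes with age did not pass (adjusted p = 0.649). The call in controls was lost without control replicate 3 at 60 days (-1.33, adjusted p = 0.0538) and once arrays were centred on their medians (-0.98), a scaling that moved every difference between these 2 groups by 0.50. It was also lost with eBayes without trend (adjusted p = 0.0566) and with the Gapdh ratio as a covariate (-1.62, adjusted p = 0.0741). The summed oligodendrocyte signal in controls was 15072.5 to 23306 units at 120 days and 5446.8 to 7700.3 at 60 days, and its part in the Ina difference was not tested.

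A further Ina probe set, 1448991_a_at, went the other way at 120 days. Its signal at 60 days was 533.2, 631.8 and 605.5 units in G93A mice, against 968.0, 252.2 and 1123.2 in controls. At 90 days it was 193.6, 547.3 and 360.1 units in G93A mice, against 329.5, 744.7 and 384.1 in controls. At 120 days it was 1225.3, 770.3 and 896.7 units in G93A mice, against 393.0, 517.4 and 465.8 in controls. Only at 120 days did the genotypes not overlap, with the G93A mice higher by 1.05 ± 0.44 (limma adjusted p = 0.335).

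In G93A mice this probe set was 1.49 ± 0.44 higher at 120 than at 90 days, a 2.81-fold higher signal (limma adjusted p = 0.0383), and in controls the same step was 0.00 ± 0.44. The difference between the steps was 1.49 ± 0.62 (adjusted p = 0.433). The call was lost without any 1 of G93A replicates 1 and 3 at 90 days and replicates 1, 2 and 3 at 120 days, with adjusted p between 0.0604 and 0.227, and with arrays centred on their medians (1.29, adjusted p = 0.0968). It was also lost with no filter on low values (adjusted p = 0.0507), with eBayes without trend (0.131), and with the Gapdh ratio (1.31, adjusted p = 0.0869) or the hybridization controls (1.81, adjusted p = 0.282) as a covariate. The third Ina probe set, 1448992_at, was dim (16.5 to 182.2 units) and lay 0.83 ± 0.63 higher in G93A mice at 120 days, with overlap. The 3 Ina probe sets therefore shared a positive difference at 120 days, apart from 1418178_at with centred arrays (-0.12), and disagreed on age: the step from 90 to 120 days in G93A mice was -0.11, 1.49 and 0.70. From 60 to 120 days they gave -1.48, -0.51 and 0.05 in controls and -0.85, 0.68 and 1.28 in G93A mice. Only 1418178_at in controls passed over that span, and no direction with age can be given for Ina as a gene.

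Prph, peripherin, is the subunit typical of neurons with peripheral axons and is induced by axon injury. On its brightest probe set (1422530_at) the signal at 60 days was 101.6, 281.5 and 113.7 units in G93A mice, against 164.9, 146.9 and 162.0 in controls. At 90 days it was 474.1, 368.4 and 445.6 units in G93A mice, against 399.8, 309.3 and 467.6 in controls. At 120 days it was 114.8, 123.0 and 183.4 units in G93A mice, against 590.4, 175.9 and 180.5 in controls. The genotypes overlapped at each age, although 2 of the 3 G93A mice lay below every control at 60 and at 120 days.

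The genotype differences on this probe set were -0.09, 0.14 and -0.95, each with a standard error of 0.42 (limma adjusted p = 0.957, 0.997 and 0.364). The difference at 120 days was -0.38 without control replicate 1, the array that also carried the highest Nefm and Nefh signals of that group. The difference at 60 days had no stable sign: it was 0.14 with arrays centred on their median.

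On this probe set, 1 of 4 for peripherin, the mean signal was highest at 90 days in both genotypes, and the later fall passed the test in G93A mice. From 60 to 90 days it was 1.53 ± 0.42 higher in G93A mice (unadjusted p = 0.00138, limma adjusted p = 0.679) and 1.29 ± 0.42 higher in controls (adjusted p = 0.133), with no overlap between the ages in either genotype. From 90 to 120 days it fell by 1.64 ± 0.42 in G93A mice, a 3.11-fold lower signal with no overlap (adjusted p = 0.0174), and the step in controls was -0.54 ± 0.42 (adjusted p = 0.619). The 2 steps differed by -1.09 ± 0.60 (adjusted p = 0.549). The call in G93A mice was lost without any 1 of replicates 1 and 3 at 90 days and replicates 1 and 2 at 120 days, with adjusted p between 0.0616 and 0.0786, with eBayes without trend (adjusted p = 0.0732) and with the hybridization controls as a covariate (-1.68, adjusted p = 0.308). The other 3 probe sets gave -0.39, 0.42 and -0.86 for the same step in G93A mice, and none passed.

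The other 3 Prph probe sets did not follow the brightest one, and the annotation gives no transcript for them. At 60, 90 and 120 days the genotype difference was -1.12, 0.06 and 0.27 for 1420256_x_at and -1.07, -1.28 and 0.25 for 1449797_x_at. For 1449796_at it was -0.71, -0.39 and 0.63, with overlap at each age. At 60 days 1420256_x_at lay lower in G93A mice with no overlap, at 73.8 to 245.6 units against 261.3 to 350.2 in controls, a difference of -1.12 ± 0.47 (limma adjusted p = 0.298). At 60 and at 90 days 1449797_x_at lay lower in G93A mice with no overlap, at 60.7 to 135.5 against 147.2 to 233.3 units and at 30.4 to 105.5 against 115.2 to 173.9 units, and the difference at 90 days was -1.28 ± 0.53 (adjusted p = 0.997). From 60 to 120 days in controls the 3 probe sets gave -1.39, -1.40 and -1.93 (limma adjusted p between 0.0522 and 0.107), against a median of -0.26 over all tested probe sets. These 3 were lower at an unadjusted p below 0.05, as were 14.2% of all. The brightest Prph probe set was 0.75 higher over the same span (adjusted p = 0.277). No direction can therefore be given for Prph as a gene between those 2 ages. The suffix _x_at marks probe sets that may also bind other transcripts.

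**Figure D4:**
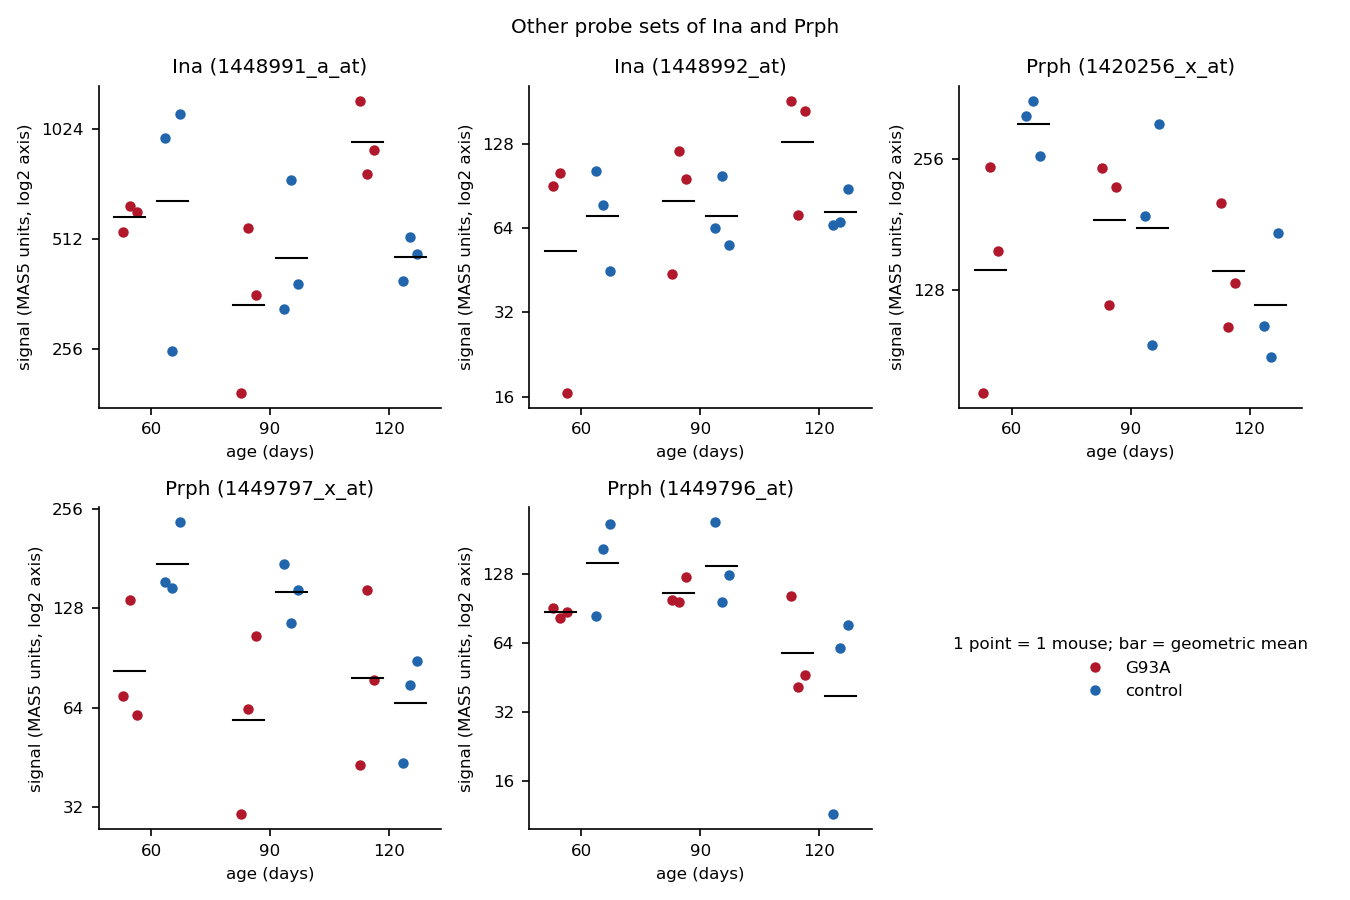
Signal of the 2 further Ina and the 3 further Prph probe sets (MAS5 units, log2 axis) by age in days; 1 point is 1 mouse and the bar is the geometric mean. The Ina probe set 1448991_a_at shows all 3 G93A mice (770.3 to 1225.3) above all 3 controls (393.0 to 517.4) at 120 days.

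The balance between subunits was read as the log2 ratio of 2 signals on the same array, a measure that a single scaling factor per array cannot move. Each gene entered by its brightest probe set alone. Only its change between groups is meaningful, since 2 probe sets bind with different strength. Nefh over Nefm was 0.79 higher in G93A mice averaged over the 3 ages (exact permutation test within ages, two-sided, p = 0.0788, adjusted over 5 pairs p = 0.38). By age the difference was 0.20, 1.88 and 0.30 at 60, 90 and 120 days, so the average comes mostly from 90 days. At 90 days that ratio ran from 1.89 to 2.73 in G93A mice and from -1.03 to 1.96 in controls, with overlap. The difference for Nefm over Nefl was -0.41, and Nefh, Ina and Prph over Nefl were 0.38, 0.47 and 0.44 higher, with permutation p between 0.209 and 0.506 and none past the test after adjustment. Quantile normalization, which is no single factor per array, turned these 3 averages to -0.04, -0.03 and -0.01, and at 120 days alone Nefh and Prph over Nefl were -0.66 and -0.30. Nefm over Nefl was 0.51 at 60 days alone, against its negative average. At 1 age the exact test of 3 against 3 mice cannot go below 0.1.

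**Figure D5:**
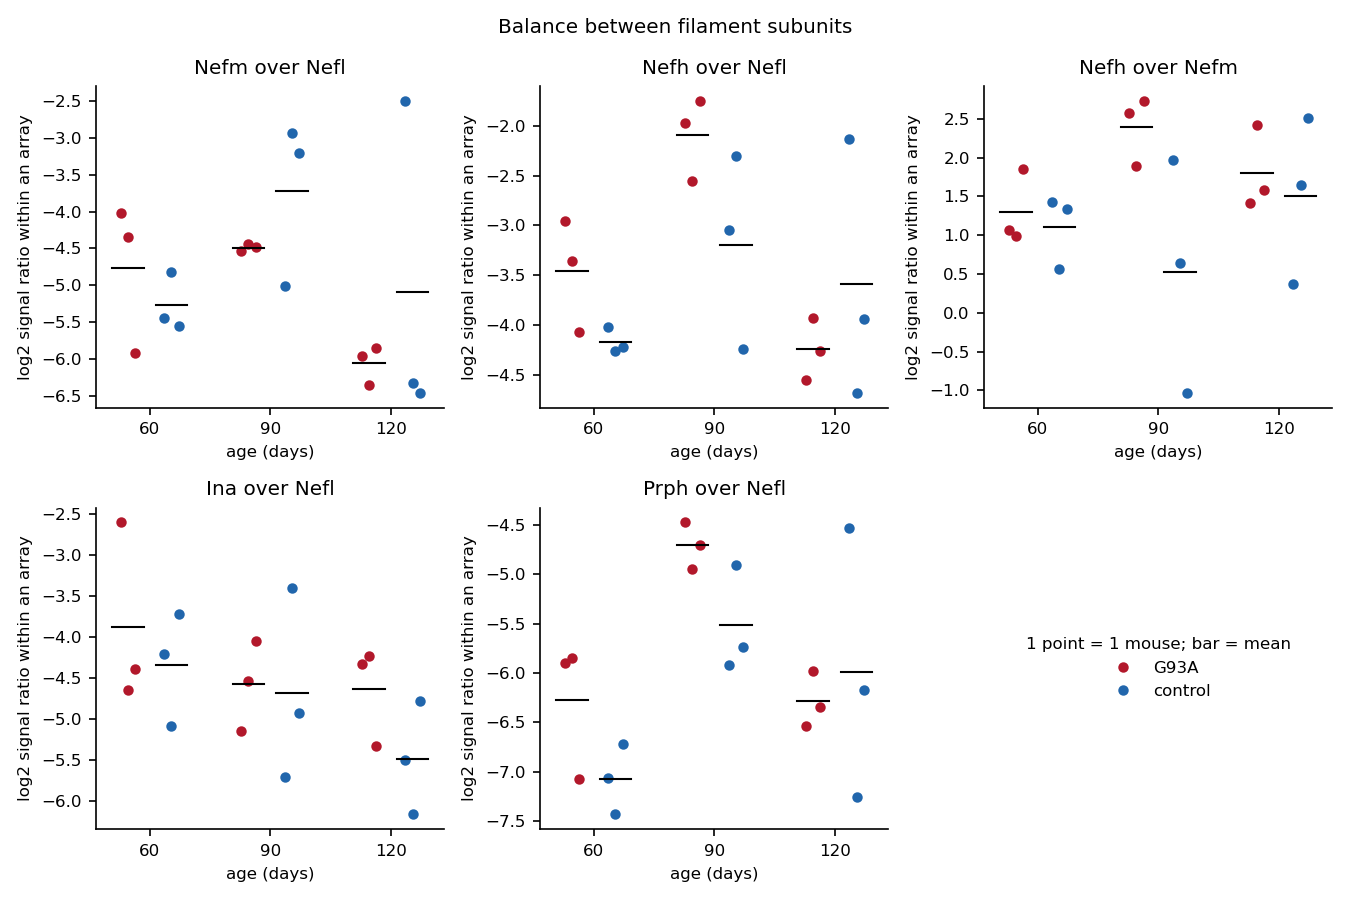
Log2 ratio of 2 subunit signals on the same array, by age in days; 1 point is 1 mouse and the bar is the mean of 3 mice. The G93A mice sit above the control mean of Nefh over Nefm at 90 days (2.40 against 0.52), where 1 control reached 1.96.

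Within groups, the brightest peripherin probe set correlated positively with the 2 larger neurofilament chains, without passing after adjustment. Each gene entered by its brightest probe set alone, and the further Prph and Ina probe sets, which disagree with these, were not correlated. In controls of 120 days Nefm was 2425.8, 334.7 and 147.5 units, while Prph 1449796_at ran the other way at 11.4, 60.6 and 76.3. Over the 18 mice, with each group mean removed, Prph correlated with Nefm (Pearson r = 0.789, Spearman rho = 0.664, permutation p = 0.0255 and 0.0351) and with Nefh (r = 0.784, rho = 0.684, permutation p = 0.0216 and 0.0259). After adjustment over the 10 pairs of genes neither passed (adjusted p = 0.128 for both Pearson correlations and 0.175 for both rank correlations). Without the 2 mice farthest from the median in Nefm, control replicates 1 and 3 at 120 days, the r of Nefm and Prph was 0.607. Without the 2 farthest in Nefh, G93A replicate 2 at 60 days and control replicate 1 at 120 days, the r of Nefh and Prph was 0.575. Nefm and Nefh had r = 0.605, which dropped to 0.183 without the 2 control mice replicates 1 and 3 at 120 days and so rests on them. Nefl correlated weakly with the 3 others of the chains and peripherin (r between 0.166 and 0.247), and Ina had negative values with all 4 (r between -0.508 and -0.244). All points come from the same arrays with the authors' scaling.

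The genes most like the brightest probe set of each subunit were looked up among 10050 other genes over the same 18 arrays, as a description. With group means removed, the closest to Nefl was Catsper1 (r = 0.957), followed by Akr1a1 (0.895) and Masp2 (0.889), and Mdh2 and Slc25a4, which encode mitochondrial malate dehydrogenase and an ADP/ATP carrier, had 0.864 and 0.857. For Nefm the closest was Vdac1, a channel of the outer mitochondrial membrane (0.888). Acly, the enzyme that makes cytosolic acetyl-CoA from citrate, was among the 5 closest to 3 of the subunits, with 0.833 for Nefh, 0.853 for Nefm and 0.859 for Prph. For Ina the closest was Gm2a (0.876). On the levels themselves Nefh and Prph were each among the other's 5 closest genes (r = 0.867).

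Intermediate filaments of other cells, among them those of glia and muscle, keratins and the nuclear lamins, gave no call. Of 12 listed genes 9 were tested and 0 were called in any genotype comparison, and at 120 days 7 of 9 differences were above 0 with a median of 0.48, of which Lmna (0.19) and Lmnb1 (0.08) turn below 0 with centred arrays. Vim (vimentin, of glial, endothelial and progenitor cells) was 2.79 ± 0.60 higher in G93A mice at 120 days (limma adjusted p = 0.0708) and 1.61 ± 0.35 higher averaged over ages (adjusted p = 0.14). Gfap, the filament of astrocytes, was 2.25 ± 0.57 higher at 120 days (adjusted p = 0.121), and Krt18, a keratin, 1.54 ± 0.75 higher (adjusted p = 0.409). The summed astrocyte marker signal at 120 days, which includes Gfap, was 6384.1 to 9126.1 units in G93A mice and 4724.5 to 7389.5 in controls.

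Genes that link, modify, carry and degrade filaments gave 0 calls in any genotype comparison. Among 12 tested crosslinkers and partners 1 lay higher and 2 lower at an unadjusted p below 0.05 at 120 days, against 6.22% and 5.98% of all. Map2, a microtubule-binding protein of dendrites, had a difference of 2.08 ± 0.72 at 60 days (limma adjusted p = 0.189) and of -2.35 ± 0.72 at 120 days (adjusted p = 0.191). Sptbn1, a spectrin of the membrane skeleton, was -1.06 ± 0.37 at 120 days, where its 3 other probe sets had the opposite sign, and Plec (plectin) was 0.98 ± 0.37 (adjusted p = 0.249 and 0.283). Both had the opposite sign at 60 days without overlap, 1.48 ± 0.37 for Sptbn1 and -1.07 ± 0.37 for Plec (adjusted p = 0.0656 and 0.19). At 60 days 1 of the 3 other Sptbn1 probe sets differed in sign from the one given here. Among 16 tested genes of transport and turnover, Klc1, a light chain of the kinesin motor, was -1.69 ± 0.41 at 120 days (limma adjusted p = 0.105). At 60 days it was 1.01 ± 0.41 (adjusted p = 0.279), where its 1 other probe set had the opposite sign. The genotypes did not overlap at either age on the Klc1 probe set given here. At 120 days Hspb1, a small heat shock protein, was 0.87 ± 0.34 and Capn2, a calcium-dependent protease that cleaves neurofilaments, -0.83 ± 0.36 (adjusted p = 0.298 and 0.347).

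Of 20 tested kinases and phosphatases that act on neurofilaments, 2 lay higher and 2 lower at an unadjusted p below 0.05 at 120 days, near the 6.22% and 5.98% of all. Csnk2a1, the catalytic subunit of casein kinase 2, was 1.30 ± 0.42 higher in G93A mice at 120 days, with 1 of its 3 other probe sets opposite (limma adjusted p = 0.214). It was -1.14 and -1.03 at 60 and 90 days, where 3 and 2 of these 3 had the opposite sign. The genotypes did not overlap on the Csnk2a1 probe set given here at any age. Prkaca, of protein kinase A, was -1.28 ± 0.42 (adjusted p = 0.223), and Csnk1a1 was -0.87 ± 0.36 with 1 of 2 other probe sets opposite (adjusted p = 0.333). Of 9 tested proteins that bind neurofilament mRNA or regulate RNA in neurons, 0 lay higher and 1 lower at that level at 120 days, against the same shares of all. That gene was Hnrnpk, at -0.95 ± 0.30, with 2 of its 3 other probe sets opposite (adjusted p = 0.205). Elavl3, a neuronal RNA-binding protein, was -0.85 ± 0.35 at 90 days and 0.71 ± 0.35 at 120 days, without overlap at either, and Ywhaz, a 14-3-3 protein, was -0.79 ± 0.41 averaged over ages (adjusted p = 0.997, 0.422 and 0.677).

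Of 10 tested motor neuron markers 5 lay below 0 and 5 above 0 at 120 days. Of the 10, 2 were lower at an unadjusted p below 0.05, against 5.98% of all tested probe sets, and none passed. Chodl, a marker of fast motor neurons, was -2.25 ± 0.66 (limma adjusted p = 0.171), and Calcb, a neuropeptide of the calcitonin family, -1.38 ± 0.62 (adjusted p = 0.368), while Uts2, urotensin 2, was 0.81 ± 0.51 (adjusted p = 0.546). The tested cell type markers were these 10, 11 of astrocytes, 10 of microglia, 9 of oligodendrocytes, 10 of endothelium and 11 of interneurons. Of all these, 1 was called in a genotype comparison: Tyrobp, a signalling adaptor of microglia, at 60 days (2.81 ± 0.58, limma adjusted p = 0.0227) and averaged over ages (2.25 ± 0.34, adjusted p = 0.01). Of all tested probe sets 0.688% were called at 60 days and 0.0121% on average.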

How the data were processed

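Per the labels' protocols, RNA of 1000 laser-captured motor neurons per animal from 10 µm sections was amplified, labelled with biotin and hybridized to 1 array per mouse. The authors deposited linear signal intensity values, 1 per probe set and array, and the submitters' processing notes name MAS5, with a version not given in the sources used here. Each array had a mean of 99.7 to 99.99 units after trimming 2% at each end, so the values are scaled per array, and detection calls were not used. Signals under 1 were set to 1 (0.236% of values) and put on the log2 scale, with no further normalization. Probe sets above their array's median on at least 3 of 18 arrays, 16565 without controls, were fitted with limma 3.58.1 in R 4.3.3 as 6 group means (12 residual degrees of freedom, empirical Bayes with trend, two-sided tests, Benjamini-Hochberg adjustment within each comparison). The fit was tested on simulated data. Groups were taken from the sample labels. Planned comparisons were G93A minus control at each age and on average, its change with age, and 120 minus 60 days within each genotype. Those involving 90 days within a genotype, and the change of the genotype difference from 90 to 120 days, were added after the values were seen. Subunit ratios were compared by an exact permutation test over 8000 arrangements. Genes were named from the platform annotation, and a gene is represented by its brightest tested probe set, one ending in _x_at only where no other was tested. All probe sets of the 5 genes are reported, in the text or in the figures. From each further gene list, those called in a genotype comparison and otherwise the 3 of smallest p at 120 days or on average were eligible for naming, and of the marker lists those of motor neurons and the called gene are given, with further markers named for their levels after these had been seen. The members, lists and rule were chosen with earlier results of these data known. Alternatives covered low values, scaling, filters, the variance model, array quality, the replicate block and leaving out each array.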

Additional observations from a re-analysis of the deposited data

How the results depend on the processing

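Of 1393 alternative values for 49 differences of the filament probe sets, 1348 kept their sign and side of the threshold, 21 were no longer past it, 10 came past it and 14 turned in sign. No genotype comparison called a filament probe set under any alternative run. The 3 calls from 90 to 120 days in G93A mice became 4 with quantile normalization, 2 with centred arrays, no filter or the Gapdh covariate, 1 with eBayes without trend, 0 with the hybridization-control level as a covariate, and 1 to 4 with 1 array left out (1 without G93A replicate 1 or 3 at 90 days, or replicate 1 or 2 at 120 days). The Nefh call held in all 18 such fits. The 1 call from 60 to 120 days in controls became 2 with a pseudocount of 16 or a filter of 9 arrays, 3 with the hybridization-control covariate, 0 with arrays centred on their median, without trend or with the Gapdh ratio as a covariate, and 0 to 2 with 1 array left out (0 without control replicate 3 at 60 days). The 0 calls from 90 to 120 days in controls became 0 to 1 (1 without control replicate 1 at 120 days). At 60 days Nefl turned to 0.0035 with quantile normalization, Nefh to 0.0446 and Ina 1448991_a_at to 0.0872 with centred arrays, and Prph 1422530_at to 0.14 with centred arrays, 0.0022 with array weights and 0.0066 with the Gapdh covariate. Nefl at 90 days turned to 0.11 with the Gapdh covariate, and Ina 1418178_at at 120 days to -0.12 with centred arrays. Centring moved all differences at 60, 90 and 120 days by 0.23, 0.15 and -0.32. With 1 array left out the range at 60 days was -0.49 to 0.0218 for Nefh, -0.55 to 0.18 for Prph 1422530_at and -0.82 to 0.25 for Ina 1448991_a_at, and -0.0182 to 0.28 for Prph 1422530_at at 90 days. Quantile normalization turned the balance of Nefh, Ina and Prph over Nefl to -0.036, -0.0308 and -0.0146, and Nefm over Nefl ranged from -0.63 to 0.0267. Causes were not tested. Over all tested probe sets the count of calls ranged over the alternatives from 1 to 266 at 60 days (114 in the fit reported), from 0 to 141 at 120 days (4), from 143 to 1803 for 60 to 120 days in controls (1112), from 28 to 481 for the same span in G93A mice (331) and from 18 to 1889 for 90 to 120 days in G93A mice (1267). The replicate numbers did not pair the mice (correlation of same-numbered arrays -0.116 to 0.058 at the 3 ages), and the fit with the replicate block gave 0 filament calls in each genotype comparison and 3 from 90 to 120 days in G93A mice, with Nefh at an adjusted p of 0.00251. The number of arrays limits all of this: the standard errors of filament differences between 2 groups were 0.34 to 0.66.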
